A study of Danio rerio with 5 samples.

Results

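Circular RNAs (circRNAs) of the zebrafish gastrula were set against those of the blastula, to describe which were newly listed, which were no longer listed and which were found at both stages. The gastrula library came from embryos at 8 hours post fertilization (hpf) and the blastula library from embryos at 4.5 hpf. Both held rRNA-depleted total RNA of whole wild-type embryos of the strain spelled Tubingenz in the labels, obtained by spontaneous mating and staged by morphology, with no treatment. The labels do not say how many embryos made up a library. Each stage had 1 library, so nothing below has a replicate check and no p-value was computed. The series has 5 such libraries, and those at 24, 48 and 72 hpf serve here to follow circRNAs of the earlier stages and to set the turnover beside later steps. The circRNAs of both libraries were joined on chromosome, start and end, and those of scaffold KN150127.1 were left out of totals. This gave 5223 circRNAs, of the 9559 in the whole series, of which 3041 were listed at 8 hpf and 2827 at 4.5 hpf.

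A circRNA arises when the splicing machinery joins the end of a downstream exon back to the start of an upstream one. The closed ring has no free ends for exonucleases to attack, and circRNAs tend to be long-lived. In the zebrafish blastula the embryo's own genome becomes active and RNA supplied by the mother begins to be cleared, and during gastrulation cells move to form the germ layers. Junction counts do not tell maternal from newly transcribed circRNAs. The tables give neither gene nor strand, so circRNAs are named by position, as deposited, with a genome build that the labels and headers do not name. "Start" is the lower and "end" the higher coordinate, and the span between them includes introns.

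The measurement was the number of reads across a back-splice junction. Without the scaffold, there were 16126 junction reads in the gastrula library and 20370 in the blastula library. The authors' depth-scaled value, SRPBM, was 0.0872 per read at 8 hpf and 0.101 per read at 4.5 hpf, and the constants are taken as depth here, the gastrula library then being the deeper. The labels and headers do not say what the denominator of SRPBM counts, so every ratio per depth rests on these constants. Levels below are in SRPBM, and ratios and folds compare SRPBM at 8 over 4.5 hpf. Summed over circRNAs, the level was 1406 SRPBM in the gastrula and 2057 SRPBM in the blastula, a ratio of 0.683 (95% interval 0.669 to 0.698). SRPBM is scaled to a library's depth and does not give copies per embryo, so the ratio by itself does not show fewer copies. In whole embryos, the number of cells with a circRNA and the copies per cell cannot be told apart either. The scaffold turns the direction of this total. It had 8454 gastrula and 40 blastula reads, nearly all on the circRNAs at 3657 to 4045 (4398 and 22 reads) and 15984 to 16405 (4025 and 18 reads), and with it the ratio was 1.04 (1.02 to 1.06). All intervals cover counting error only and treat reads or circRNAs as independent, although reads carry no molecular identifiers and circRNAs of a locus can share a source.

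Most circRNAs were listed at 1 of the 2 stages. There were 2396 newly listed in the gastrula (called new), 2182 no longer listed there (called lost), and 645 listed at both stages (called kept). New circRNAs made up 78.8% of the gastrula list (77.3 to 80.2), and lost ones 77.2% of the blastula list (75.6 to 78.7). By reads the turnover was smaller. New circRNAs held 61.8% of the gastrula reads, and lost ones 49.3% of the blastula reads. The kept circRNAs carried the remaining 38.2% of gastrula and 50.7% of blastula reads.

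**Figure D1:**
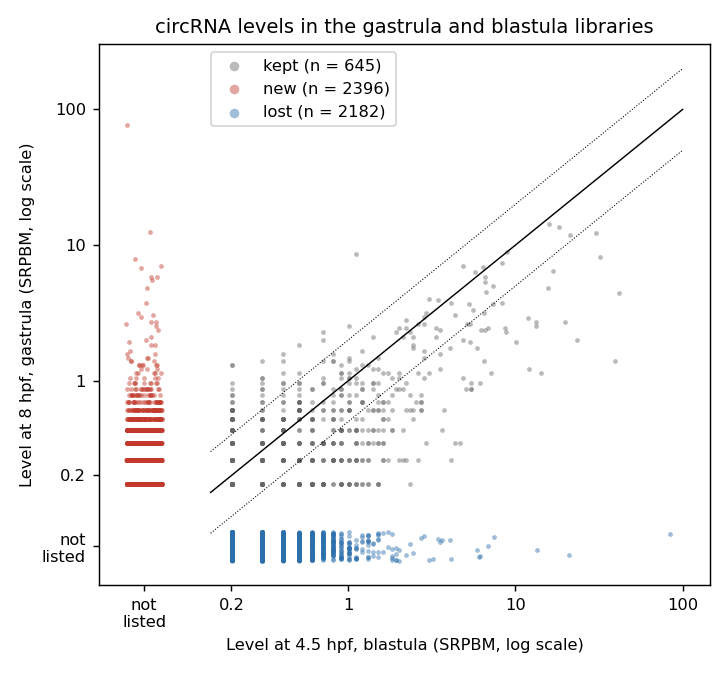
Level of each circRNA at 8 hpf (vertical) against 4.5 hpf (horizontal), in SRPBM on log axes, without scaffold KN150127.1. Points are 2396 new, 2182 lost and 645 kept circRNAs, those not listed are set in a band with random scatter, the solid line marks equal levels and the dotted lines 2-fold; most abundant kept circRNAs lie under the solid line.

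CircRNAs at the lowest counts made up much of the turnover. The lowest count in either list was 2 reads, so a circRNA with 0 or 1 read is not listed. Of the new circRNAs, 43.5% stood at 2 reads, as did 35.7% of the lost ones, against 18.9% of kept circRNAs in the gastrula and 18.4% in the blastula. Of circRNAs with 2 gastrula reads, 10.5% were also listed in the blastula (8.77 to 12.4), and of those with 2 blastula reads, 13.3% were also listed in the gastrula (11.1 to 15.7). The share was higher at higher counts. With 10 to 19 reads, 61.6% of the gastrula's circRNAs (52.9 to 69.7) and 60.2% of the blastula's (52.8 to 67.3) were listed at both stages. With 50 reads or more, 18 of 27 gastrula circRNAs (66.7%, 46.0 to 83.5) and 46 of 54 blastula circRNAs (85.2%, 72.9 to 93.4) were.

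**Figure D2:**
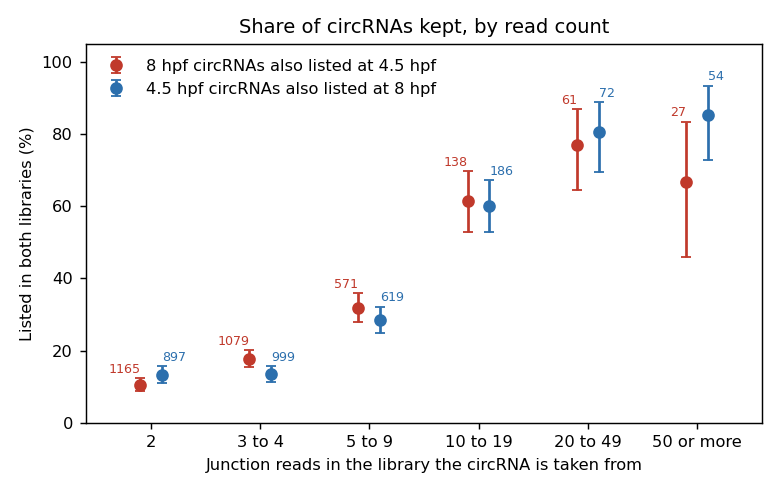
Percentage of circRNAs listed at both stages (vertical) by junction reads in the library they were taken from (horizontal), for 8 hpf and 4.5 hpf circRNAs, with exact 95% binomial intervals and the number of circRNAs beside each point. The percentage was 10.5% and 13.3% at 2 reads, 77.0% and 80.6% at 20 to 49 reads, and 66.7% and 85.2% at 50 reads or more.

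An unlisted circRNA was next given 1 read, taken as the highest count that escapes listing. The lowest listed count is the only ground for this, as the caller and its filters are not named. The interval then excluded 1 for 96 of the 2396 new circRNAs (4.01%), each with at least 9 gastrula reads. It did so for 229 of the 2182 lost ones (10.5%), each with at least 7 blastula reads. These are single intervals with no allowance for the number of circRNAs, and for an unlisted circRNA the outcome follows from its reads alone. At 20 reads or more there were 23 new and 22 lost circRNAs, which held 11.9% of the gastrula and 9.35% of the blastula reads. Of the 23 new ones, 9 overlapped a blastula circRNA and 4 had a start or end in common with a blastula circRNA. Of the 22 lost ones, 9 overlapped a gastrula circRNA and 4 had a start or end in common with a gastrula circRNA. At any read count, 13.7% of new and 14.0% of lost circRNAs had a start or end in common with the other library. For overlap the nearest measure covers spans of at most 50 kb. There 17.8% of new and 19.8% of lost circRNAs lay in a merged region with reads of the other library. A circRNA with a span within 5% and a start within 100 kb was listed in the other library for 4 of the 23 and 6 of the 22. At any read count, adding such matches raised the gastrula circRNAs found in the other library from 645 to 721 of 3041. The blastula circRNAs found there rose from 645 to 735 of 2827. Whether such pairs are separate circRNAs or a single junction placed at shifted positions was not tested.

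The most abundant new circRNA lay on chromosome 6, 6817343 to 6833488, with 877 gastrula reads (76.5 SRPBM). It was listed at no other stage, and no other circRNA of either library had its start or end. The next was short, 258 bp on chromosome 1, 25967354 to 25967612, with 143 reads at 8 hpf, 67 at 24 hpf and 17 at 72 hpf. For new and lost circRNAs, "at least" gives the lower 95% limit of the fold with 1 read set for the library that does not list it, and holds for the exact position only. The new circRNAs of chromosomes 6 and 1 were at least 136-fold and 21.8-fold higher in the gastrula.

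Chromosome 4 had 2 of the 10 new circRNAs with most reads. At 76321644 to 76322090, 446 bp, there were 90 gastrula reads, at least 13.6-fold higher. At 71390324 to 71395239 there were 78 gastrula reads, at least 11.7-fold higher. Close to the second, the blastula library listed 71390404 to 71395239 with 9 reads, which has the same end and a start 80 bp away. It also listed 71390324 to 71395199 with 3 reads, which has the same start and an end 40 bp away. Neither of these was listed in the gastrula.

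Chromosome 19 also had a pair of them, within a few kilobases. Those at 3211162 to 3215138 and 3217290 to 3218215 had 67 and 43 gastrula reads and were at least 10.03-fold and 6.32-fold higher. A circRNA of 38 bp from the start of the second, 3217290 to 3217328, was new as well, with 16 gastrula reads. Whether a junction of so short a span comes from a ring was not tested. Chromosome 8 had a pair at distant positions. At 21058484 to 21068075 there were 67 reads at 8 hpf, 22 at 24 hpf and 114 at 72 hpf. At 16576587 to 16577246 there were 63 reads at 8 hpf and 35 at 24 hpf. They were at least 10.03-fold and 9.41-fold higher in the gastrula. Scaffold KN150207.1, 851 to 25785, had 80 reads at 8 hpf and 10 at 24 hpf, at least 12.05-fold higher, beside a second new circRNA with the same end, 788 to 25785, with 5 gastrula reads. The remaining one was on chromosome 23, 36354198 to 36832487, with 55 gastrula reads.

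Among lost circRNAs, chromosome 22, 25714875 to 25722913, stood above the rest with 830 blastula reads (83.8 SRPBM), at least 172-fold lower in the gastrula. It was listed at no other stage. A second circRNA with its start, which ended 11483 bp farther on, had 3 blastula reads and was lost as well. On chromosome 19, 27980175 to 27985610 had 134 blastula reads and its level was at least 27.4-fold lower in the gastrula. Also on chromosome 19, 32902963 to 32910707 had 208 blastula reads and was lost, at least 42.8-fold lower. There, 32902969 to 32910707 was new with 5 gastrula reads. The positions of this pair differ by 6 bp at the start.

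The other lost circRNAs with most reads had 40 to 74 blastula reads. Chromosome 21, 43654678 to 43660028 (61 reads), chromosome 19, 4139104 to 4150827 (58 reads), and chromosome 13, 35267298 to 35268745 (40 reads), were listed at no later stage. They were at least 12.2-fold, 11.6-fold and 7.85-fold lower in the gastrula. The end at 4150827 remained in use, since 4125377 to 4150827 was kept with 7 gastrula and 10 blastula reads. Others were listed again later. Chromosome 16, 51147594 to 51230708, had 74 reads in the blastula and 38 at 72 hpf, a level at least 14.9-fold lower in the gastrula. Chromosome 2, 2490015 to 2518843, had 60 in the blastula and 16 at 72 hpf, at least 12.01-fold lower in the gastrula. Chromosome 7, 1326487 to 1350405, and chromosome 3, 3623832 to 3637286, had 68 and 41 reads at 4.5 hpf, and 7 and 5 at 24 hpf. These were at least 13.7-fold and 8.06-fold lower in the gastrula.

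More circRNAs were lower than higher in the gastrula. Of 541 circRNAs with at least 10 reads over both libraries, 107 were at least 2-fold higher (19.8%) and 274 at least 2-fold lower (50.6%). Where the interval also had to exclude 1, these were 87 (16.1%) and 213 (39.4%). New and lost circRNAs are called by construction, since an unlisted circRNA was set at 3 reads for the calls and 10 reads against 3 is over 2-fold, and all 76 new and 96 lost ones with 10 reads were called. With 1 read set for the interval, all 76 and 96 also had an interval that excludes 1, again by construction. Of the 369 kept circRNAs, 31 were higher (8.4%) and 178 lower (48.2%), with a median ratio of 0.561 and quartiles of 0.288 and 1.07. Among these kept calls, the interval excluded 1 for 11 higher and 117 lower ones. Summed over all 645 kept circRNAs, there were 6163 gastrula and 10328 blastula reads, a ratio of 0.515 (0.499 to 0.532). The split of calls moved with the scaling. When levels were scaled to total junction reads, which takes out a log2 shift of -0.55, 133 of 541 were higher and 210 lower, so that 38.8% of calls were higher, against 28.1% per depth. Of the 369 kept, 57 were then higher and 114 lower. TMM, with a shift of -0.55 as well, gave 132 and 210 of 541.

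Among kept circRNAs, falls were more numerous than rises and reached larger folds. Of 174 kept circRNAs whose summed reads reached 20, the interval of the ratio lay under 1 for 86 and above 1 for 8. It lay under 0.5 for 34 and above 2 for 1. These counts are per depth, with no allowance for the number of circRNAs, and are not given for other scalings. The kept calls moved from 31 higher and 178 lower per depth to 57 and 114 when scaled to total junction reads. The farthest below 1 was a circRNA of 473 bp on chromosome 16, 32233692 to 32234165. It had 16 gastrula reads (1.39 SRPBM) and 389 blastula reads (39.3 SRPBM), a 28.2-fold lower level (17.1 to 49.8), and later 36, 13 and 5 reads at 24, 48 and 72 hpf. Chromosome 7, 15515797 to 15533024, had 23 gastrula and 231 blastula reads, 11.6-fold lower (7.57 to 18.7). Chromosome 24, 21797569 to 21822449, had 14 gastrula and 119 blastula reads, 9.85-fold lower (5.64 to 18.6).

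The other 5 of the 8 kept circRNAs farthest below 1 spanned over 100 kb. Chromosome 2, 57502503 to 57945198, had 51 gastrula and 412 blastula reads, 9.36-fold lower (6.98 to 12.8). Chromosome 15, 46764879 to 46940981, had 31 gastrula and 197 blastula reads, 7.36-fold lower (5.02 to 11.1). Chromosome 23, 36354198 to 36824234, had 13 gastrula and 140 blastula reads, 12.5-fold lower (7.06 to 24.0). All 3 were listed at 72 hpf, with 49, 58 and 20 reads, but that of chromosome 15 was not listed at 24 hpf. Chromosome 17, 640948 to 1093842, had 4 gastrula and 46 blastula reads, and chromosome 25, 413673 to 531318, had 3 and 41. The length of the ring itself is not known from the junction.

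Rises among kept circRNAs were led by chromosome 22, 91571 to 115726. It had 99 gastrula reads (8.63 SRPBM) and 11 blastula reads (1.11 SRPBM), 7.77-fold higher (4.16 to 16.1), followed by 97, 34 and 28 reads at 24, 48 and 72 hpf. The next 6 were 2.50-fold to 3.88-fold higher, with lower interval bounds of 1.11 to 1.36. Among them, chromosome 9, 28456306 to 28460457, had 18 gastrula and 4 blastula reads, and later 20, 46 and 37 reads at 24, 48 and 72 hpf. At its end, 28457670 to 28460457 was new with 11 gastrula reads. Scaffold KN149830.1, 6306 to 6720, had 26 gastrula and 7 blastula reads. The eighth, chromosome 17, 3349985 to 3350375, had 81 gastrula and 48 blastula reads, a ratio of 1.46 (1.01 to 2.13), under the 2-fold call.

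By the ratio alone, 160 of the 369 kept circRNAs with at least 10 reads were within 2-fold per depth. The whole interval of the ratio lay between 0.5 and 2 for 16 of the 174, which circRNAs with few reads can hardly meet. The most abundant were chromosome 1, 53451167 to 53519640, with 155 gastrula and 180 blastula reads (ratio 0.743, 0.596 to 0.927), and chromosome 11, 44020549 to 44026831, with 164 gastrula and 157 blastula reads (ratio 0.902, 0.720 to 1.13). Chromosome 17, 52534232 to 52538743, had 102 gastrula and 88 blastula reads (ratio 1.00, 0.745 to 1.35), and then 25, 15 and 6 reads at 24, 48 and 72 hpf. Chromosome 3, 10557220 to 10563292, had 85 gastrula and 82 blastula reads, and then 32, 10 and 3. A lost circRNA with the same end, 10552363 to 10563292, had 15 blastula reads. Chromosome 2, 58186047 to 58193420, had 79 gastrula and 63 blastula reads, with 26, 36 and 39 afterwards.

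New circRNAs were shorter than lost ones in genomic span. The median was 6674 bp for new circRNAs (6129 to 7161) and 8182 bp for lost ones (7526 to 8735), with kept ones at 7868 bp (6808 to 8810). Spans of 10 to 100 kb made up 34.9% of new circRNAs (33.0 to 36.8) and 40.5% of lost ones (38.4 to 42.6). Spans of 500 bp to 2 kb made up 13.7% of new circRNAs (12.3 to 15.1) and 11.0% of lost ones (9.72 to 12.4). Among circRNAs with at least 10 reads, the medians were 6918 bp for 76 new ones (3307 to 13167) and 14043 bp for 96 lost ones (8038 to 20367), with intervals that overlap. Spans under 500 bp made up 10.1% of new circRNAs (8.96 to 11.4) and 10.4% of lost ones (9.11 to 11.7).

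The change in level differed between span classes, most of all for the longest. The share of blastula circRNAs that were kept was 18.7% under 500 bp (14.3 to 23.8), 24.3% from 500 bp to 2 kb, 24.9% from 2 to 10 kb (22.2 to 27.7), 21.6% from 10 to 100 kb and 23.1% over 100 kb (16.0 to 31.7). CircRNAs over 100 kb had 890 gastrula and 2230 blastula reads, a ratio of 0.345 (0.318 to 0.373), beside 0.683 for all circRNAs. The kept ones of that class had 494 gastrula and 1778 blastula reads, a ratio of 0.240 (0.217 to 0.265), which was 0.280 without the circRNA of most reads and 0.324 (0.284 to 0.368) without the 3 of most reads. Of 22 kept circRNAs over 100 kb with at least 10 reads, 16 were at least 2-fold lower and 1 higher, beside 48.2% lower and 8.4% higher of all 369. With levels scaled to total junction reads these were 14 lower and 1 higher.

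In the shortest class a single circRNA carried much of the sum. Kept circRNAs under 500 bp had 429 gastrula and 845 blastula reads, a ratio of 0.438 (0.389 to 0.493). Without the chromosome 16 circRNA at 32233692 to 32234165 it was 0.782 (0.683 to 0.895). All circRNAs under 500 bp had 1527 gastrula and 1697 blastula reads, a ratio of 0.777, or 0.997 (0.925 to 1.07) without that circRNA. Of the 51 short ones with at least 10 reads, 14 were higher (27.5%) and 20 lower (39.2%) per depth, beside 19.8% and 50.6% of all 541. The balance turned with the scaling, to 17 higher and 15 lower when scaled to total junction reads or by TMM, while each longer class had more lower than higher under all 4 scalings. These counts include new and lost circRNAs, which are called by construction. Of the 31 kept ones under 500 bp, 2 were higher and 12 lower per depth, beside 8.4% and 48.2% of all 369 kept. Scaled to total junction reads or by TMM, 5 kept ones were higher and 7 lower, so the balance did not turn among them. From 500 bp to 2 kb, the called circRNA with most reads was chromosome 2, 116705 to 117894, with 140 gastrula and 299 blastula reads, 2.47-fold lower (2.02 to 3.05). It was under 2-fold with each of the 3 other scalings, with log2 ratios of -0.76 for junction totals and TMM and -0.83 for the median of ratios.

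**Figure D3:**
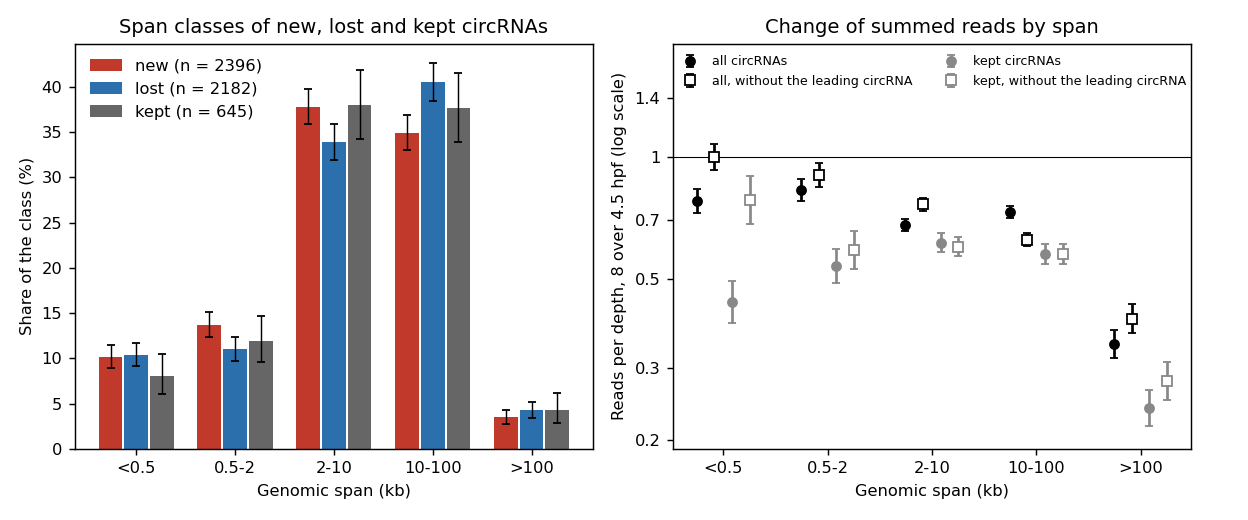
Left, percentage of new, lost and kept circRNAs in each span class, with exact 95% binomial intervals. Right, ratio of summed junction reads per depth, 8 over 4.5 hpf, on a log axis by span class, for all and kept circRNAs, each with and without the circRNA of most reads, with exact 95% intervals; spans over 100 kb lie lowest, at 0.345 for all and 0.240 for kept circRNAs.

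New, lost and kept circRNAs were found on all 25 chromosomes. The share of blastula circRNAs kept ranged between 14.5% on chromosome 4 (7.70 to 23.9) and 32.4% on chromosome 15 (23.4 to 42.3). On 24 of 25 chromosomes the interval held the 22.8% of all circRNAs, chromosome 15 being the exception. With 5 reads needed for listing, the share kept on chromosome 4 was 3.70%, from few circRNAs. It was then 38.1% on chromosome 15 and 26.3% over all blastula circRNAs. The share of gastrula circRNAs that were new lay between 70.4% on chromosome 17 and 86.0% on chromosome 4. More circRNAs were called lower than higher on all 25 chromosomes per depth. When scaled to total junction reads this held on 20, and 1 had more higher than lower.

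The outlying chromosomes came closer to the others without single circRNAs. Chromosome 6 had 1316 gastrula and 509 blastula reads, a ratio of 2.23 (2.01 to 2.48), but 0.745 (0.654 to 0.848) without its new circRNA of 877 reads. Chromosome 22 had 520 gastrula and 1399 blastula reads, a ratio of 0.321 (0.290 to 0.355), but 0.789 (0.699 to 0.890) without its lost circRNA of 830 reads. With the circRNA of most reads left out on each chromosome, ratios lay between 0.518 on chromosome 16 (0.466 to 0.574) and 1.01 on chromosome 8 (0.903 to 1.13), and 21 of 25 intervals lay under 1. The ratio of kept circRNAs was lowest on chromosome 16, at 0.245 (0.213 to 0.281). The circRNA of most reads left out on chromosome 16 was 55075739 to 55381521, kept with 93 gastrula and 318 blastula reads. The short circRNA described above, kept with 16 gastrula and 389 blastula reads, stayed in the value of 0.518. Both of these circRNAs count in the 0.245 of kept ones, so that value is no separate support for 0.518. No ratio of the chromosome without both was computed. Kept circRNAs had a ratio above 1 on chromosome 22 alone, at 1.13 (0.932 to 1.38), where the interval includes 1.

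**Figure D4:**
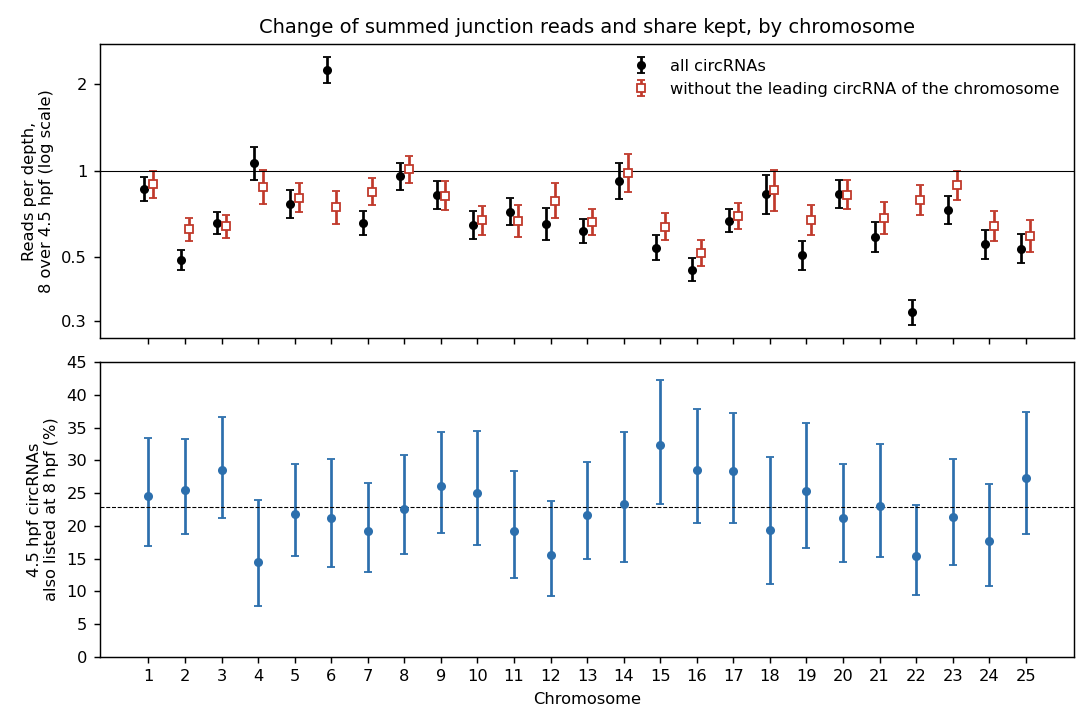
Top, ratio of summed junction reads per depth, 8 over 4.5 hpf, on a log axis for chromosomes 1 to 25, with and without the circRNA of most reads on each. Bottom, percentage of 4.5 hpf circRNAs also listed at 8 hpf, with the 22.8% of all circRNAs dashed; bars are exact 95% intervals, and the outlying points of chromosomes 6 and 22 move to 0.745 and 0.789 without their leading circRNA.

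Unplaced scaffolds had more new than lost circRNAs. On 55 of them, 44 circRNAs were new, 23 lost and 4 kept, with 298 gastrula and 162 blastula reads (ratio 1.59, 1.31 to 1.93). This ratio depends on single circRNAs. The new circRNA of KN150207.1, 851 to 25785, held 80 of the gastrula reads and was not listed in the blastula. Without the scaffolds' circRNA of most reads, which had 27 gastrula and 65 blastula reads, the ratio was 2.41 (1.91 to 3.07). The mitochondrial genome had 3 new circRNAs with the same start at 6423 and 9, 3 and 3 gastrula reads, and 1 lost circRNA, 7023 to 7522, with 2 blastula reads. None of these 4 was listed at a later stage, and whether their junctions come from splicing was not tested.

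Some new and lost circRNAs had a back-splice end in common with the other library. Of new circRNAs, 328 (13.7%, 12.3 to 15.1) had the start or the end of a blastula circRNA, and of lost ones, 305 (14.0%, 12.5 to 15.5) had that of a gastrula circRNA. These shares depend on the read minimum. With 5 reads needed for listing they were 9.24% of new and 8.02% of lost circRNAs, and with 5 reads needed in the other library alone 6.30% and 5.41%. A start was shared by 176 and an end by 175 new circRNAs, and by 164 and 157 lost ones, of which 23 new and 16 lost ones shared both with different circRNAs. Sharing was more frequent at long spans. It was found in 31.3% of new (21.6 to 42.4) and 26.9% of lost circRNAs (18.2 to 37.1) over 100 kb, against 6.17% of new (3.50 to 9.98) and 8.85% of lost ones (5.49 to 13.3) under 500 bp. Counted as positions, 740 starts were used at both stages, 25.6% of the 2895 in the gastrula and 27.4% of the 2698 in the blastula. Likewise 718 ends were used at both, 25.04% of the 2867 in the gastrula and 26.8% of the 2677 in the blastula.

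Over both libraries, 642 starts or ends were used by 2 or more circRNAs, 129 of them with gastrula reads alone and 119 with blastula reads alone. On 26 of the 642 at least 2 circRNAs had 10 reads or more, and on 14 at least 2 circRNAs were called. The calls went the same way on 10 of the 14 and in opposite directions on 4. Among all 541 circRNAs, 107 were called higher and 274 lower, and new and lost ones are called by construction. Whether 4 of 14 differs from what unrelated calls would give was not tested. These 4 were picked out for their direction, so their values are a description. Most reads lay on the start at 36354198 of chromosome 23. The circRNA ending at 36832487 was new, with 55 gastrula reads (4.79 SRPBM), at least 8.17-fold higher. The kept one ending 8253 bp before it, at 36824234, had 13 gastrula reads (1.13 SRPBM) and 140 blastula reads (14.1 SRPBM). The longer one held 80.9% of the pair's reads at 8 hpf (69.5 to 89.4), against 0 of 140 at 4.5 hpf, and 59.6%, 69.4% and 41.2% at 24, 48 and 72 hpf. Summed, the pair had 68 gastrula and 140 blastula reads, 2.38-fold lower (ratio 0.419, 0.309 to 0.564).

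The other 3 such ends had fewer reads. From 29000222 on chromosome 2, the circRNA ending at 29014645 was new with 10 gastrula reads, and the one ending at 29013972 had 2 gastrula and 10 blastula reads. From 73524 on chromosome 3, that ending at 150656 was new with 13 gastrula reads, and that ending at 209558 was lost with 16 blastula reads. At the end 9259941 of chromosome 11, the circRNA starting at 9137267 was new with 11 gastrula reads, and the one starting at 9217646 had 11 gastrula and 4 blastula reads. That starting at 9244151 had 2 gastrula and 9 blastula reads. Of these, the ratio interval of 9217646 to 9259941 included 1 (0.703 to 10.2).

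**Figure D5:**
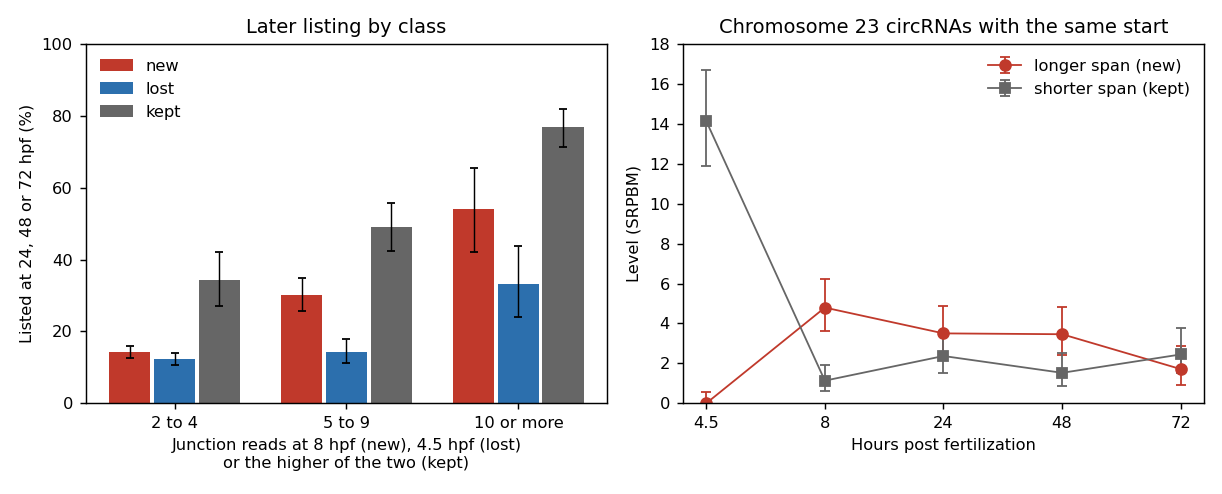
Left, percentage of new, lost and kept circRNAs listed at 24, 48 or 72 hpf, by junction reads, with exact 95% binomial intervals. Right, level in SRPBM at the 5 stages of the chromosome 23 circRNAs with the same start, stages spaced evenly, with exact 95% Poisson intervals (upper limit at 4.5 hpf taken from 1 read where not listed); the shorter one is highest at 4.5 hpf with 14.1 SRPBM and the longer one at 8 hpf with 4.79 SRPBM.

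The 5 ends used by most circRNAs changed in different directions. The start on chromosome 1 at 57867011 served 8 circRNAs, of which 1 was new, 6 were lost and 1 kept, with 6 gastrula and 47 blastula reads, 9.07-fold lower (ratio 0.110, 0.0385 to 0.258). The end on chromosome 10 at 35813920 served 6, of which 4 were new and 2 kept, with 31 gastrula and 6 blastula reads, 4.46-fold higher (1.83 to 13.1). The end on chromosome 3 at 62102688 also served 4 new and 2 kept circRNAs, but had 23 gastrula and 52 blastula reads (ratio 0.382, 0.223 to 0.635). Of the blastula reads there, 43 lay on the kept circRNA starting at 62092208, which had 4 gastrula reads. The end on chromosome 9 at 29423433 had 22 gastrula and 11 blastula reads (ratio 1.73, 0.802 to 3.94). The start on chromosome 6 at 37004256 had 21 gastrula and 37 blastula reads (ratio 0.490, 0.272 to 0.859).

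Overlapping circRNAs were also merged into regions. A region pools circRNAs of both libraries, so a share at both stages above that of single circRNAs can come from the merging alone. CircRNAs with spans of at most 50 kb formed 3886 regions, of which 757 had reads at both stages, 1676 in the gastrula alone and 1453 in the blastula alone. These 757 were 31.1% of the gastrula regions (29.3 to 33.0) and 34.3% of the blastula regions (32.3 to 36.3). Of new circRNAs in regions, 17.8% lay where the blastula also had reads, and of lost ones, 19.8% lay where the gastrula had reads. Of 561 regions with at least 10 reads, 125 were at least 2-fold higher and 247 lower per depth. Regions with reads at 1 stage alone are called by construction once they have 10 reads. How many of the calls they make up, and the split under other scalings, are not given here. Of the 20 regions with 5 or more circRNAs, 3 were higher and 9 lower.

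The region with most circRNAs lay on chromosome 4 beside a region that changed the opposite way. From 76321360 to 76323853, 12 circRNAs, 9 new and 3 lost, had 167 gastrula and 12 blastula reads, 12.01-fold higher (6.70 to 23.7). Besides the 90 reads of 76321644 to 76322090, 29 gastrula reads lay on 76321667 to 76322123 and 16 on 76321824 to 76323853. Just before it, from 76320387 to 76321112, 7 circRNAs had 8 gastrula and 43 blastula reads, 6.23-fold lower (ratio 0.161, 0.0652 to 0.346). There 76320878 to 76321069 was lost with 15 blastula reads, and 76320804 to 76321069 had 4 gastrula and 16 blastula reads. These spans are short and some of their ends lie close together, and whether they are separate junctions was not tested.

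On chromosome 1, 48881262 to 48904509, 7 circRNAs had 4 gastrula and 55 blastula reads, 15.9-fold lower, with 32 of the blastula reads on 48882213 to 48904509. Spans of 8365 to 8431 bp recurred there at shifted starts, for the 1 new circRNA and 4 lost ones. On chromosome 3, 3610327 to 3657694 had 73 gastrula and 117 blastula reads in sum (ratio 0.539, 0.396 to 0.728). There, circRNAs of 30692 and 13295 bp were new with 34 and 18 gastrula reads, and one of 13454 bp was lost with 41 blastula reads. The kept one, 3630725 to 3645305, had 16 gastrula and 64 blastula reads.

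Of the other 4 among the 8 regions with most circRNAs, 3 had ratio intervals that include 1 although most of their circRNAs were new or lost. On chromosome 7, 35393916 to 35421152, 8 circRNAs, 4 new, 3 lost and 1 kept, had 21 gastrula and 19 blastula reads (ratio 0.954, 0.488 to 1.88). On chromosome 11, 29203885 to 29285685, 7 circRNAs had 22 gastrula and 23 blastula reads (ratio 0.826, 0.439 to 1.55). On chromosome 22, 23125903 to 23163070, 6 circRNAs had 18 gastrula and 22 blastula reads (ratio 0.706, 0.357 to 1.38). On chromosome 3, 1236892 to 1310241, 6 circRNAs had 15 gastrula and 27 blastula reads, and the interval lay under 1 (ratio 0.480, 0.237 to 0.934).

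New circRNAs were listed at later stages more often than lost ones. Of 2396 new circRNAs, 432 (18.03%, 16.5 to 19.6) were listed at 24, 48 or 72 hpf, and of 2182 lost ones, 296 (13.6%, 12.2 to 15.1). Kept circRNAs reached 363 of 645 (56.3%, 52.4 to 60.1), 120 of them at all 3 later stages. Read counts differ between the classes, so the shares are also given by reads, taking the larger of both counts for kept circRNAs. With 2 to 4 reads they were 14.2% of new (12.7 to 15.8), 12.2% of lost (10.7 to 13.9) and 34.3% of kept circRNAs (27.2 to 42.1). With 5 to 9 reads they were 30.1% of new (25.6 to 34.9), 14.2% of lost (11.1 to 17.8) and 49.1% of kept ones (42.4 to 55.9). With 10 reads or more they were 53.9% of new (42.1 to 65.5), 33.3% of lost (24.0 to 43.7) and 76.9% of kept ones (71.2 to 81.9). The intervals of new and lost circRNAs overlap at 2 to 4 reads and at 10 reads or more, and not at 5 to 9 reads. Of the circRNAs with at least 20 reads, 13 of 23 new and 7 of 22 lost ones were listed later.

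New circRNAs listed at all 3 later stages numbered 52, and lost ones 28. Besides chromosome 23, 36354198 to 36832487, the new ones with most gastrula reads were on chromosomes 12, 16 and 4, with 17 each. Chromosome 12, 47647969 to 47670672, had 40, 60 and 73 reads at 24, 48 and 72 hpf, while chromosome 16, 204546 to 398679, had 24, 8 and 17. Chromosome 4, 182367 to 183452, had 12, 28 and 11. Among the 28 lost ones, chromosome 23, 1337593 to 1393443, had 10 blastula reads and then 29, 33 and 51 at 24, 48 and 72 hpf. Chromosome 9, 52751544 to 53055170, had 11 blastula reads and then 25, 22 and 22.

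Over the full lists, the share kept between blastula and gastrula was not at either extreme beside the later steps of the series. It was 22.8% (21.3 to 24.4), then 15.4% between 8 and 24 hpf, 25.7% between 24 and 48 hpf and 22.5% between 48 and 72 hpf. Where the earlier library had at least 20 reads, 82.5% were kept between 4.5 and 8 hpf (74.8 to 88.7), the highest share of all steps. The later steps had 73.9% (63.4 to 82.7), 76.5% (64.6 to 85.9) and 80.5% (70.6 to 88.2), with overlapping intervals. Consecutive steps share a library, depth and the time between stages differ, and the differences between steps were not tested.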

How the data were processed

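Each stage's deposited table gave raw back-splice junction read counts with no value under 2, and junctions absent from a table entered as 0. A deposited series table repeated the counts of circRNAs listed in at least 2 libraries, with 0 mismatches, beside the authors' depth-scaled score, named SRPBM in the file headers. Within a library SRPBM was the count times 1 constant, which was applied to all its circRNAs. The submitters' processing notes name BWA 0.7.5a-r405 and edgeR 3.12.1 without saying what for, and neither caller nor build is named. Extraction used TRIzol and RiboMinus, with strand-specific libraries, per the labels' protocols.

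Ratios of SRPBM were computed as 8 over 4.5 hpf, with exact conditional Poisson intervals at 95%. Shares carry exact Clopper-Pearson intervals and medians order-statistic intervals. Calls needed 10 reads over both libraries and a 2-fold ratio, with an unlisted circRNA at 3 reads for calls and at 1 read for intervals and for the lower limits printed as "at least". The interval calculation was tested on simulated data. Python 3.11.15, numpy 2.4.6, pandas 2.3.3, scipy 1.17.1, matplotlib 3.10.9 and, for TMM, edgeR 4.0.16 in R 4.3.3 were used. Other scalings, read minimums, folds and definitions of identity were tried.

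Named by rule were the 10 new and 10 lost circRNAs with most reads, the 8 kept ones on each side of 1 with the farthest interval and the 5 with most reads within 2-fold (at least 20 reads over both libraries), the leading called one per span class and direction, the 5 ends used by most circRNAs, and the chromosomes with the highest and lowest share kept. CircRNAs sharing those ends, regions, opposite calls at an end, other chromosomes, and circRNAs listed again later were chosen after their values were seen. So was the kept circRNA inside the new one of chromosome 1. The comparison, classes and rules were chosen with earlier results of these data known. Host genes were not assigned and tissue markers not checked, since no annotation of the files' build was used.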

Additional observations from a re-analysis of the deposited data

Results flagged for a closer look

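Scaffold KN150127.1 was left out of all totals, and its signal at 8 hpf lay far above that at 4.5 hpf. It held 8454 junction reads at 8 hpf (34.4% of the library) and 40 at 4.5 hpf (0.196%). Besides its pair of short circRNAs, it had 19 reads at 3657 to 13394 and 12 at 3657 to 16405 at 8 hpf, neither of them listed at 4.5 hpf.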

How the results depend on the processing

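No paired analysis was possible because each stage had 1 library. With a circRNA listed only at 5 reads or more, 797 were listed at 8 hpf and 931 at 4.5 hpf. Then 69.3% of the gastrula list was new and 26.3% of the blastula list kept (3.70% on chromosome 4, from few circRNAs). The median span was then 7174 bp for new and 9011 bp for lost circRNAs, 9.24% of new and 8.02% of lost ones shared an end, and 15.9% and 10.1% were listed later. Where only the other library had to reach 5 reads, 6.30% of new and 5.41% of lost circRNAs shared an end. Weighted by reads, the median span was 7508 bp for new and 8038 bp for lost circRNAs. With a span within 5% at a start within 100 kb also matched, 76.3% of the gastrula list was new and 25.999% of the blastula list kept. Against the 24 hpf list, 14.6% of blastula circRNAs were kept. Calls numbered 30 higher and 111 lower with at least 20 reads, 244 and 591 with at least 5, 47 and 146 at 4-fold, and 31 and 178 among kept circRNAs alone. The kept ratio over 100 kb was 0.280 and 0.324 without the circRNA and without the 3 circRNAs of most reads, both chosen after the data were seen. At the blastula depth, 2704.5 circRNAs would be expected at 8 hpf, against 2827 at 4.5 hpf. At the gastrula total of junction reads, 2410 would be expected at 4.5 hpf, against 3041 at 8 hpf, so the order of the lists' lengths depends on the scaling. Of the 36 named circRNAs that were called, 35 stayed past 2-fold in the same direction under each of 3 scalings. They were named for many reads or far intervals, and the scalings took out log2 shifts of only -0.48 to -0.55. Most of them could thus hardly fall under 2-fold, and the count says nothing of other circRNAs. The single library per stage, low counts and the unknown placement of close junctions limit these values. The causes of these shifts were not tested.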
